A study of Homo sapiens with 13 samples.

Results

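The genes described here encode secreted and membrane-bound metalloproteases that cut the extracellular matrix, together with the inhibitors that hold them in check. Membership followed from the name: every gene with a human Ensembl identifier called MMP, ADAMTS or TIMP followed by its number. The rule found 45 genes of 61541, made up of 22 MMP, 19 ADAMTS and 4 TIMP genes, and all were in the tables of both experiments. The ADAMTS-like proteins do not match the rule and were not counted.

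RNA was sequenced in bulk from RUES2, a human embryonic stem cell line that carries SMAD4 fused to GFP, so all 13 libraries come from 1 modified line. In the time series, cells received 100 ng/mL BMP4, 5 µM of IWP2, which blocks secretion of Wnt ligands, and a ROCK inhibitor. They were collected at 0 h (2 libraries) and at 4, 12, 20, 28 and 42 h (1 library each). In the dose response, cells had the same treatment for 5 h together with 0, 10, 30, 100 or 300 nM of LDN-193189. This compound, LDN below, inhibits the type I receptors of BMP. A further library of that experiment came from untreated cells kept in mTeSR medium, with 1 library per condition. The labels give the 0 h libraries the same treatment text as the later ones. The untreated library differs from the others in IWP2 as well as BMP4, and possibly in the ROCK inhibitor.

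MMPs are zinc proteases made as inactive precursors, and most are secreted while others are tethered to the membrane. ADAMTS proteases carry thrombospondin-type repeats that hold them to the matrix, and they trim procollagens, proteoglycans such as versican, and fibrillin microfibrils. TIMPs bind the active site of MMPs, TIMP3 also inhibits several ADAMTS enzymes, and TIMP2 together with MMP14 takes part in activating the precursor of MMP2. In the early embryo these enzymes act where epithelia spread, fold or lose their basement membrane.

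Totals ran from 37957385 to 71333471 counts per library in the time series and from 15600931 to 33989998 in the dose response, where the untreated library was the shallowest. The share of mitochondrial counts was 2.01% to 7.60% in the time series. It was 4.22% to 4.49% with BMP4 and 7.89% in the untreated library. At 0 h the pluripotency markers POU5F1, SOX2, NANOG, PRDM14 and TDGF1 were all expressed, and 4 of these 5 fell with time, POU5F1 being the exception. All 7 amnion-like markers (such as HAND1, ISL1 and GABRP) were at least 2-fold higher at 42 h, and all 6 BMP targets (ID1 to ID4, SMAD6 and SMAD7) fell with LDN. Of 4 fibroblast markers DCN stayed at or below 0.0204 CPM, LUM reached 1.02 CPM at 42 h, and COL1A1 and COL1A2 were expressed. The 4 blood and endothelial markers summed to between 0.509 and 1.3 CPM. Of the 4 primitive streak markers EOMES alone passed the expression minimum, and their sum was at most 4.71 CPM. In bulk RNA fewer cells of a kind and less RNA per cell cannot be told apart.

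Levels are given as CPM, counts per 1000000 scaled by TMM factors within each experiment, and levels of different genes are compared only as FPKM, which also divides by gene length. Linear trends were tested with edgeR's quasi-likelihood test at a Benjamini-Hochberg adjusted p of 0.05 over every gene whose mean reached 1 CPM. Values after 0 h follow in the order 4, 12, 20, 28 and 42 h, and values with LDN in the order of rising dose. A gene is said to rise or fall only where this trend passed. Slopes are log2 changes in CPM per 10 h, or per step along 0, 10, 30, 100 and 300 nM LDN, with their standard errors. Only 0 h had a second library, so the scatter of libraries about the line is the estimate of error, and ratios between single libraries carry no test.

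Of the 45 genes, 33 passed the minimum in the time series, and 11 rose and 7 fell with time. Among all 15976 genes tested, 19.2% rose and 17.5% fell. With LDN, 31 members were tested, of which 4 rose and 8 fell, against 10.3% and 11.0% of 14907 genes. At 42 h, 12 of 33 members were at least 2-fold above the 0 h mean and 11 at least 2-fold below it, against 14.4% and 13.2% of all genes. At 5 h with BMP4 and no LDN, 4 of 30 were at least 2-fold above the untreated library and 2 at least 2-fold below it, against 4.05% and 1.96% of all genes. The members thus split in both directions: their median slope was 0.04 per 10 h and -0.02 per LDN step, and that of all genes, at -0.00 in both, was close to 0. Between the 2 libraries at 0 h the log2 ratio of the measured members ran from -0.68 for MMP16 to 0.37 for MMP9 and MMP15.

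**Figure D1:**
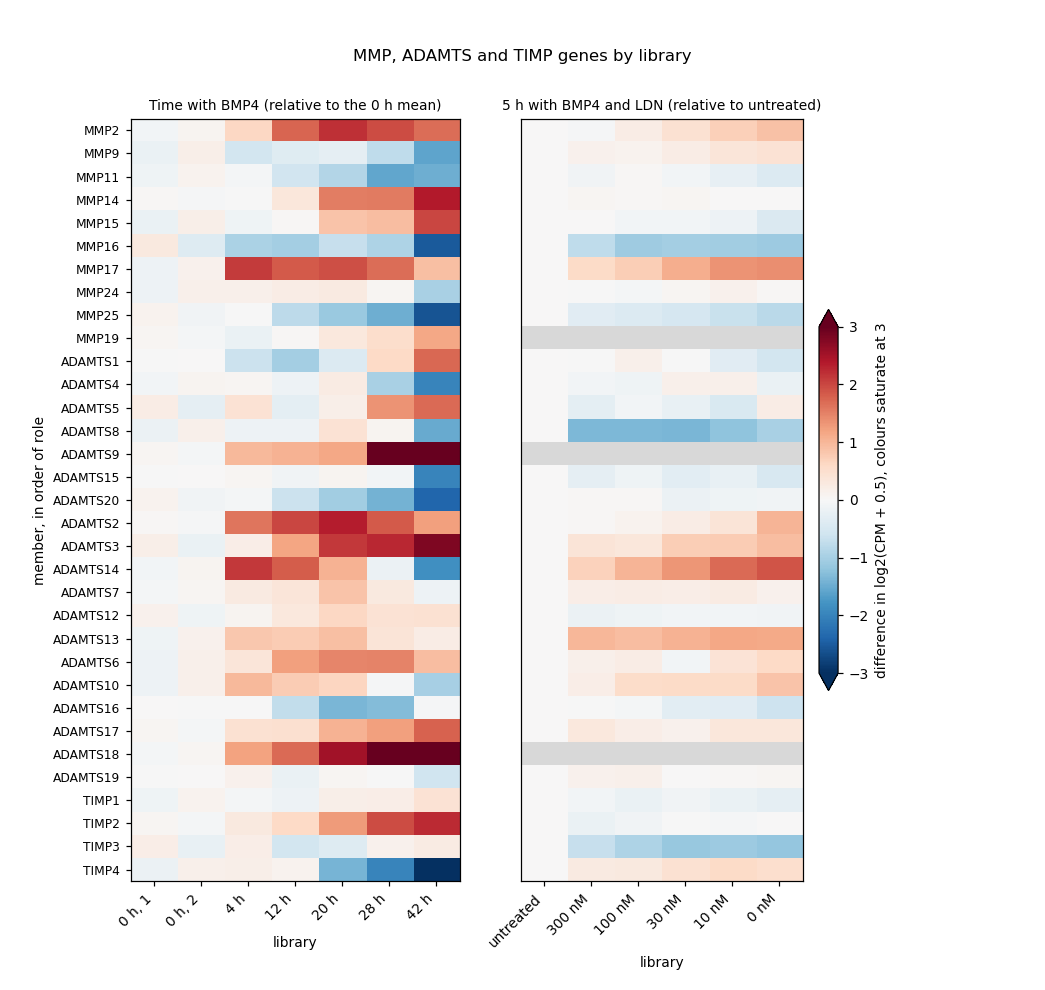
Each row is 1 of the 33 members measured in the time series, ordered by role, and each column 1 library. Colour gives the difference in log2(CPM + 0.5) from the 0 h mean (left) or from the untreated library (right), and grey rows had a mean under 1 CPM over the 6 dose-response libraries. ADAMTS9 and ADAMTS18 end deepest in red at 42 h, and ADAMTS14, MMP17 and ADAMTS2 are red already at 4 h and again at 5 h with BMP4.

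The 3 procollagen N-propeptidases, ADAMTS2, ADAMTS3 and ADAMTS14, which remove the amino-terminal propeptide of fibrillar procollagens, all fell with LDN. The 250 bases before their RefSeq start sites (GRCh38.p14) are shown because of this shared fall, though their courses over time differed. The sequence of MMP7 stands for the silent MMP genes of chromosome 11. Capitals mark matches on either strand to GGCGCC, a GC-rich motif that SMAD proteins bind, and to the palindrome of the SMAD box, GTCTAGAC. They also mark TGACTCA, the AP-1 site, and the TATA box in the form TATAAA. The SMAD motifs read the same on both strands, and none of the motifs overlaps another in these windows. ADAMTS14 lies at chr10:70672256-70672505 (plus strand), ADAMTS2 at chr5:179345462-179345711 (minus), ADAMTS3 at chr4:72569222-72569471 (minus) and MMP7 at chr11:102530748-102530997 (minus).
ADAMTS14: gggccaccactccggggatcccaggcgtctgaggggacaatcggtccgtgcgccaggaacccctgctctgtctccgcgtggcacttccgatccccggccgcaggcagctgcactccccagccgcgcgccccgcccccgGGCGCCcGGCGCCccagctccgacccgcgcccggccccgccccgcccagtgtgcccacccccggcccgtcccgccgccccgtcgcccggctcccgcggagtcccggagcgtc
ADAMTS2: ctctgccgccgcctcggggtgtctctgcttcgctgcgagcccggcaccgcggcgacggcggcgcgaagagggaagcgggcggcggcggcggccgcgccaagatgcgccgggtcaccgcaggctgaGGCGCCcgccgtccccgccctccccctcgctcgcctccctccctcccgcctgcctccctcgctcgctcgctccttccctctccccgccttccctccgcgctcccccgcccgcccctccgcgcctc
ADAMTS3: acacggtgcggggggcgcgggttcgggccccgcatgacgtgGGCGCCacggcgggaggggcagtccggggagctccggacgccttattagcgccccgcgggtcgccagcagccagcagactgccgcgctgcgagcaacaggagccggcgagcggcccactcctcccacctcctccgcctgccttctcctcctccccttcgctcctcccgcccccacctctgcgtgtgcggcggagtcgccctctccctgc
MMP7: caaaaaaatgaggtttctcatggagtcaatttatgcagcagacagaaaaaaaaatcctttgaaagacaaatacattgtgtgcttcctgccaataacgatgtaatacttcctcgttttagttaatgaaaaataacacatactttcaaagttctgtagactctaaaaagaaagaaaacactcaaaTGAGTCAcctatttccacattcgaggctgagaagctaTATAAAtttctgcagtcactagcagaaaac

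GGCGCC occurred in these 3 promoters, 2 times in that of ADAMTS14, and in no other of the 26 members with an entry in the promoter table. The promoter of ADAMTS10, which also fell with LDN, had 78.4% GC and did not hold GGCGCC. Over all 35116 promoters of the same length 16.4% held it, and 50.3% of the 3555 with a GC content of at least 75% did. The GC content was 80.4% for ADAMTS14, 80.0% for ADAMTS2 and 75.2% for ADAMTS3, so these promoters belong to the class in which the motif is frequent. GTCTAGAC was in no member's promoter and in 0.182% of all. TGACTCA was in 1 member's, that of MMP7, and in 4.2% of all, and TATAAA was in 7 members' and in 10.7% of all. The match is a description of these letters, and binding was not measured. The promoters of MMP2, MMP17, ADAMTS8 and TIMP2, which fell with LDN as well, were not analysed here.

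ADAMTS14 (ENSG00000138316, chr10:70672506-70762441) was highest early. It gave 3.89 and 4.38 CPM in the 0 h libraries, then 19.8, 15.9, 9.05, 3.62 and 0.792 CPM from 4 to 42 h. The 4 h library stood 4.38-fold above the 0 h mean on the scale of CPM + 0.5, and by 42 h the level was below both 0 h libraries (log2 ratio -1.84). The linear trend over this course did not pass (slope -0.70 ± 0.36, adjusted p = 0.162). With LDN at 0, 10, 30, 100 and 300 nM it gave 16.4, 14.5, 11.0, 8.78 and 6.90 CPM, and 4.08 CPM in untreated cells. Each step of LDN gave a lower level and the slope, -0.32 ± 0.03 per step (adjusted p = 5.68e-06), was the steepest of the 31 members tested.

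ADAMTS2 (ENSG00000087116, chr5:179110853-179345461) peaked later. Its levels were 8.42 and 7.89 CPM at 0 h, then 26.0, 34.5, 44.1, 30.5 and 19.8 CPM from 4 to 42 h. Every later library was above both at 0 h, but the linear trend did not pass (0.28 ± 0.23 per 10 h, adjusted p = 0.353). With rising LDN it gave 17.0, 10.8, 9.54, 8.75 and 8.34 CPM, and 8.16 CPM in untreated cells. Most of this fall lay between 0 and 10 nM. The slope was -0.25 ± 0.04 per step (adjusted p = 0.0011), and without the 0 nM library it was -0.13 and no longer passed.

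ADAMTS3 (ENSG00000156140, chr4:72280969-72569221), which also processes the lymphatic growth factor VEGFC, had the late course of the 3. It gave 4.85 and 3.64 CPM at 0 h and 4.95, 10.3, 20.1, 22.4 and 32.5 CPM at the successive times. It rose by 0.77 ± 0.09 per 10 h (adjusted p = 0.000584) and ended 6.95-fold above the 0 h mean. With LDN it fell from 7.12 through 6.30 and 6.09 to 4.57 and 4.71 CPM, against 3.48 CPM untreated (slope -0.16 ± 0.04, adjusted p = 0.0121). Without the 0 nM library the slope was -0.17 and did not pass. At 5 h all 3 propeptidases were thus highest with BMP4 and no LDN. At 42 h ADAMTS14 was below and ADAMTS3 far above its level at 0 h.

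Of the gelatinases, which digest denatured collagen and the type IV collagen of basement membranes, MMP2 stood at 14.8 and 18.1 FPKM and MMP9 at 1.19 and 1.63 FPKM at 0 h. MMP2 (ENSG00000087245, chr16:55389700-55506691) gave 44.6 and 49.9 CPM at 0 h, then 73.1, 159, 217, 185 and 152 CPM from 4 to 42 h. All later libraries exceeded both 0 h libraries. The rise passed only just (0.48 ± 0.16 per 10 h, adjusted p = 0.0454), and it did not pass with library totals in place of TMM, or without either 0 h library, the 4 h or the 28 h library. Without 42 h the slope was 0.83 and passed. With LDN the 5 levels were 104, 92.7, 76.8, 65.2 and 55.2 CPM, and untreated cells had 56.1 CPM. These fell at every step, by 0.23 ± 0.01 (adjusted p = 8.17e-08), to a level that differed from untreated cells by a log2 ratio of -0.02.

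MMP9, a gelatinase best known from leukocytes and invading trophoblast, gave 2.41 and 3.26 CPM at 0 h and 1.77, 2.11, 2.25, 1.46 and 0.622 CPM afterwards, and fell by 0.41 per 10 h (SE 0.11, adjusted p = 0.0229). The fall did not pass without the second 0 h library or without 42 h. In the dose response it was 2.64, 2.45, 2.20, 1.98 and 2.01 CPM with LDN and 1.81 CPM untreated, with no trend that passed (slope -0.11 ± 0.06, adjusted p = 0.222). SLC12A5-AS1, at up to 2.22 CPM, shares 430 exon bases with MMP9 on the opposite strand, and the counting is not stated to use strand.

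The 6 membrane-type MMPs were all expressed and went different ways: MMP14 and MMP15 rose with time, MMP16 and MMP25 fell, and MMP17 and MMP24 had no linear trend that passed. MMP14 (ENSG00000157227, chr14:22836560-22849041), the main pericellular collagenase and the activator of MMP2, gave 35.9 and 34.3 CPM at 0 h, then 34.8, 44.6, 103, 104 and 185 CPM from 4 to 42 h. At 4 h it lay between the 0 h libraries, and at 42 h it was 5.23-fold above their mean (0.61 ± 0.06 per 10 h, adjusted p = 0.000208). The gain was smaller in FPKM, which went from 25.5 and 22.6 at 0 h through 17.1 at 4 h to 77.5 at 42 h, a log2 ratio of 1.68 against 2.39 in CPM. With LDN it gave 52.9, 52.8, 54.5, 54.5 and 55.4 CPM, and 52.7 CPM untreated, and its slope of 0.02 ± 0.01 did not pass (adjusted p = 0.365).

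MMP15 (ENSG00000102996, chr16:58025754-58046901), also held by a transmembrane segment, gave 89.2 and 115 CPM at 0 h, then 94.3, 105, 186, 194 and 409 CPM. The 3 libraries from 20 h on were above both at 0 h, and the rise was 0.47 ± 0.06 per 10 h (adjusted p = 0.000658). At 5 h the direction with BMP4 was the opposite. With LDN from 0 to 300 nM the levels were 54.6, 66.8, 70.0, 70.1 and 75.1 CPM, and 74.1 CPM untreated, so the library with BMP4 and no LDN was the lowest. MMP15 rose with LDN by 0.10 ± 0.02 per step (adjusted p = 0.00274), and by 0.05 per step, still past the threshold, without the 0 nM library.

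MMP17 and MMP25 are the MMPs held by a glycosylphosphatidylinositol anchor, and they had opposite trends with LDN. MMP17 (ENSG00000198598, chr12:131828393-131851783) gave 14.5 and 17.9 CPM at 0 h, then 70.9, 59.2, 63.3, 53.0 and 30.6 CPM from 4 to 42 h. It was 4.28-fold above the 0 h mean at 4 h, remained above both 0 h libraries throughout, and had no linear trend (0.10 ± 0.22, adjusted p = 0.739). With LDN it gave 40.0, 38.4, 32.1, 25.1 and 22.3 CPM, and 14.9 CPM untreated. It fell by 0.23 ± 0.02 per step (adjusted p = 1.18e-05), and at 300 nM was still above untreated cells by a log2 ratio of 0.57.

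MMP25 (ENSG00000008516, chr16:3046062-3060726) gave 56.6 and 48.6 CPM at 0 h, then 52.1, 30.1, 24.1, 18.9 and 8.27 CPM from 4 to 42 h. From 12 h on each library was lower than the one before, and the slope was -0.62 ± 0.05 per 10 h (adjusted p = 0.000111). With LDN it rose from 22.5 through 24.9, 28.3 and 29.9 to 31.5 CPM, with 40.1 CPM untreated (slope 0.12 ± 0.02, adjusted p = 0.000622). MMP25 was the only member that fell with time and rose with LDN. MMP25-AS1, an RNA of the opposite strand at up to 7.56 CPM, shares 1454 exon bases with it, and the reads of these genes cannot be told apart if strand was not used.

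MMP16 gave 92.9 and 57.8 CPM at 0 h, a wider gap than that of any other member measured, and 38.9, 36.8, 46.5, 39.7 and 12.6 CPM afterwards. It fell (-0.46 ± 0.12 per 10 h, adjusted p = 0.0196), but not without the first 0 h library or without 42 h. At 5 h the 5 libraries with BMP4 held 21.2, 22.0, 22.4, 21.7 and 27.0 CPM from 0 to 300 nM LDN and the untreated library 45.8 CPM. The slope with LDN did not pass (0.07 ± 0.03, adjusted p = 0.0696), and every dose was below the untreated library. It did pass without the expression minimum, without the 100 nM library, or with the untreated library added as a further step. MMP24 ran from 74.0 to 99.0 CPM up to 28 h and was 42.0 CPM at 42 h, with no trend that passed. Its antisense neighbour MMP24OS, at up to 33.4 CPM, shares 806 exon bases with it.

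Among the remaining MMPs, MMP11, a stromelysin that furin activates inside the cell, fell with time. It gave 8.19 and 9.72 CPM at 0 h and 8.56, 5.84, 4.61, 2.69 and 2.90 CPM later (-0.44 ± 0.07 per 10 h, adjusted p = 0.00228). With LDN it was 7.84, 8.83, 9.91, 10.8 and 9.72 CPM, and 10.5 CPM untreated, with no trend that passed (adjusted p = 0.0922). MMP19, a secreted MMP with basement membrane substrates, rose from 1.35 and 1.21 CPM through 1.04, 1.33, 1.72 and 2.05 to 3.47 CPM (0.35 ± 0.07, adjusted p = 0.00609), but the rise did not pass without 42 h. With LDN it gave 0.959, 1.08, 0.948, 1.12 and 0.960 CPM, and 0.870 CPM untreated (slope 0.00 ± 0.08, adjusted p = 0.979). MMP19 shares 821 exon bases with the opposite-strand pseudogene TMEM198B (up to 12.6 CPM).

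The other 12 MMPs did not reach a mean of 1 CPM in either experiment. They include all 3 collagenases (MMP1, MMP8 and MMP13) and both matrilysins (MMP7 and MMP26). Of these 12, 9 lie side by side on chromosome 11, at chr11:102520508-102955732, within 435.2 kb, in the order MMP7, MMP20, MMP27, MMP8, MMP10, MMP1, MMP3, MMP12 and MMP13. The largest count any of the 9 had in any library was 13, for MMP10 in the second library at 0 h. MMP1, MMP7, MMP12, MMP20 and MMP27 had 0 counts in all 13 libraries. A count of 0 allows a level of up to 0.0421 CPM in the deepest library and up to 0.192 CPM in the shallowest, for counting error only. The 5 promoters of this cluster in the RefSeq table had 32.8% to 41.6% GC and 0 to 3 CpG, and 4 held TATAAA. The 19 members that were expressed and matched had a median of 72.4% GC and 22 CpG, against medians of 58.0% and 11 for all promoters.

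MMP28, an MMP of epithelia, had 46 counts at 42 h and between 0 and 3 in each of the other 12 libraries. MMP21, which takes part in setting the left-right axis of the embryo, had 16 to 49 counts in the time series and 4 to 11 in the dose response. MMP21 shares 136 exon bases with EDRF1 of the opposite strand, which reached 51.6 CPM, and their reads cannot be told apart if strand was not used.

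**Figure D2:**
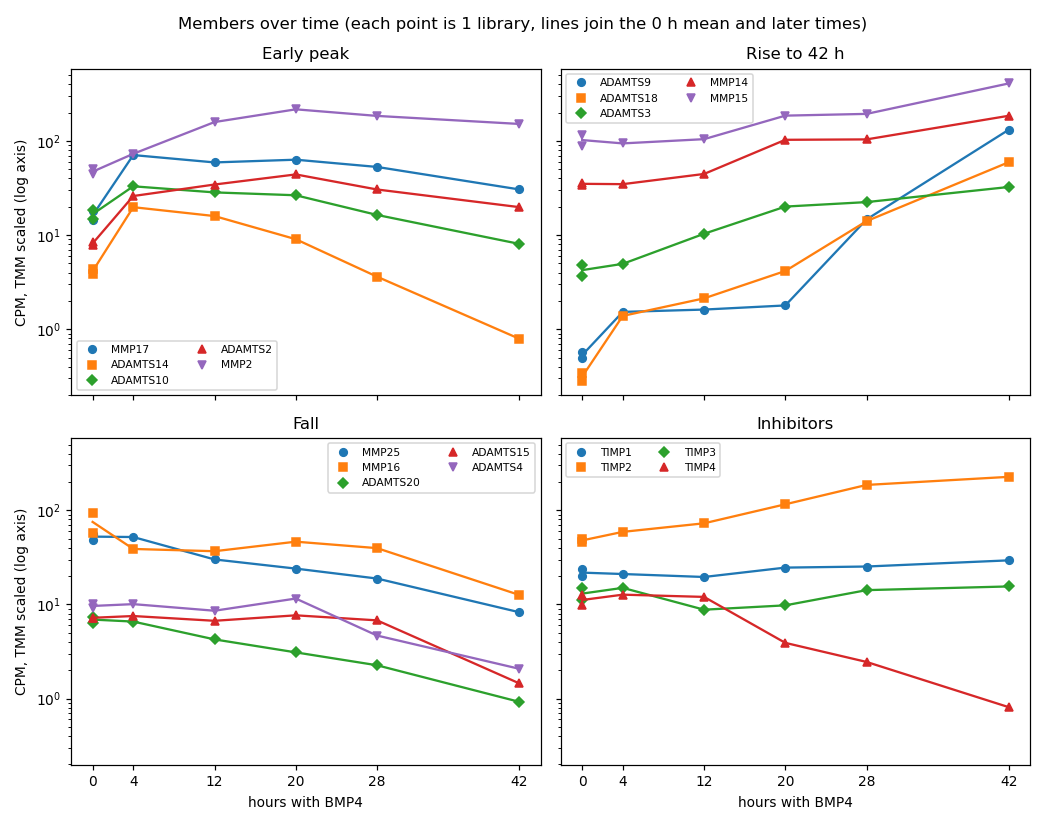
Level of 19 members over the time series in CPM on a log axis, in 4 panels by the shape of their course, with 1 point per library and 2 points at 0 h. MMP17 and ADAMTS14 peak at 4 h and MMP2 and ADAMTS2 at 20 h, ADAMTS9 climbs mostly after 20 h, MMP25 falls from 12 h on, and TIMP2 rises as TIMP4 falls.

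The 7 hyalectanases are ADAMTS enzymes that cut aggrecan, versican and related proteoglycans, and here 3 rose, 2 fell and 2 had no trend that passed over time. ADAMTS9 (ENSG00000163638, chr3:64515654-64688000), which cuts versican during tissue closure in the embryo, gave 0.570 and 0.491 CPM at 0 h, then 1.53, 1.62, 1.79, 14.7 and 132 CPM from 4 to 42 h. Behind these were 22 and 36 counts at 0 h and 6996 at 42 h. It ended 128-fold above the 0 h mean on the scale of CPM + 0.5, the largest ratio of any member (log2 ratio 7.71 with a pseudocount of 0.1 CPM), and rose by 1.79 ± 0.16 per 10 h (adjusted p = 0.000155). Nearly all of the gain came after 20 h. In the dose response it gave 1.03, 0.962, 1.01, 0.607 and 0.810 CPM with LDN and 0.468 CPM untreated, below the minimum for a test. ADAMTS9-AS1, an RNA of the opposite strand at up to 2.51 CPM, shares 174 exon bases with ADAMTS9. Reads in these bases cannot be told apart if strand was not used, which bears on the low early levels.

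ADAMTS20, the closest relative of ADAMTS9, went the other way. It gave 7.44 and 6.39 CPM at 0 h, then 6.58, 4.26, 3.10, 2.26 and 0.924 CPM, and its slope was -0.67 ± 0.07 per 10 h (adjusted p = 0.000248). In the dose response it gave 6.16, 5.98, 5.78, 6.84 and 6.81 CPM with LDN and 6.63 CPM untreated. ADAMTS20 was thus 0.192 times its starting level at 42 h, when ADAMTS9 was at its highest.

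ADAMTS1, cloned as an inflammation-induced gene, was below both 0 h libraries at 4, 12 and 20 h and above them at 28 and 42 h. It gave 10.9 and 11.1 CPM at 0 h, then 6.91, 5.16, 8.12, 16.8 and 37.7 CPM from 4 to 42 h, with a slope of 0.42 ± 0.12 per 10 h (adjusted p = 0.029). The rise did not pass without the 4 h, 28 h or 42 h library, or with time as ranks. With LDN it was 8.35, 9.80, 12.4, 13.9 and 12.3 CPM, and 12.4 CPM untreated. It rose with LDN by 0.16 ± 0.04 per step (adjusted p = 0.0117), although not without the 0 nM library or with the untreated library added as a further step. Without the 300 nM library the slope was 0.25. The lowest level at 5 h was thus with BMP4 and no LDN, and 3 of the 5 times after 0 h were below 0 h.

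ADAMTS5, a main aggrecanase of cartilage, gave 2.41 and 1.56 CPM at 0 h and 2.87, 1.53, 2.3, 5.81 and 7.58 CPM later. It rose by 0.46 ± 0.11 per 10 h (adjusted p = 0.0149), but not without 42 h. With LDN it gave 2.02, 1.08, 1.38, 1.57 and 1.26 CPM, and 1.67 CPM untreated. ADAMTS4, another aggrecanase, gave 9.12 and 10.2 CPM at 0 h and 10.1, 8.58, 11.6, 4.68 and 2.07 CPM later. It fell by 0.45 per 10 h (SE 0.14, adjusted p = 0.0339), but not without the 4, 12, 28 or 42 h library, or with time as ranks. At 5 h it gave 4.55, 5.98, 5.96, 4.76 and 5.01 CPM with LDN and 5.29 CPM untreated. Up to 20 h ADAMTS4 did not leave the range of 8.58 to 11.6 CPM, and its lowest levels were at 28 and 42 h.

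ADAMTS15 gave 7.21 and 7.23 CPM at 0 h and 7.54, 6.71, 7.67, 6.78 and 1.45 CPM later, so that 42 h alone stood apart, with no linear trend that passed (-0.34 ± 0.15, adjusted p = 0.11). At 5 h it gave 5.85, 7.17, 6.67, 7.73 and 6.93 CPM with LDN and 8.43 CPM untreated (slope 0.06 ± 0.04, adjusted p = 0.36). ADAMTS8 (ENSG00000134917, chr11:130404923-130428609) gave 28.8 and 36.6 CPM at 0 h, then 29.2, 29.3, 44.3, 34.4 and 11.2 CPM, again with no trend that passed (adjusted p = 0.3). In the dose response it gave 17.0, 14.3, 12.8, 12.9 and 12.9 CPM with LDN and 33.6 CPM in untreated cells. It fell by 0.09 per step (SE 0.03, adjusted p = 0.0348), but not in DESeq2 or without the 0 nM library (slope -0.04) or the 100 nM library. All 5 libraries with BMP4 were far below the untreated one. With the untreated library added as a further step the slope was 0.14 and did not pass.

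The COMP-cleaving pair, which cuts cartilage oligomeric matrix protein, had no trend that passed. ADAMTS7 held 70.4 and 77.3 CPM at 0 h, reached 134 CPM at 20 h and was 66.8 CPM at 42 h, and lay between 61.5 and 73.0 CPM at 5 h. ADAMTS12 ran from 21.3 to 36.0 CPM over time and from 17.7 to 19.9 CPM at 5 h. ADAMTS13, the protease of von Willebrand factor, was 3.84 and 4.64 CPM at 0 h and 7.82, 7.54, 8.38, 5.70 and 5.07 CPM later, with no trend that passed. At 5 h it gave 8.97, 9.12, 8.44, 7.67 and 8.10 CPM with LDN against 3.81 CPM untreated, so it was about as high at 300 nM LDN as with no LDN.

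Of the other 6 ADAMTS genes, ADAMTS17 and ADAMTS18 rose with time and none fell. ADAMTS18 (ENSG00000140873, chr16:77247813-77435034), which is required for development of the eye, gave 0.285 and 0.341 CPM at 0 h, then 1.39, 2.13, 4.16, 14.1 and 59.6 CPM from 4 to 42 h. Each later time was above the one before it, and with 1.66 ± 0.11 per 10 h (adjusted p = 4.67e-05) it had the lowest adjusted p of any member over time. It ended 73.9-fold above the 0 h mean on the CPM + 0.5 scale (log2 6.21, and 7.17 or 5.53 with a pseudocount of 0.1 or 1 CPM). At 5 h the counts were few: 42, 27, 10, 20 and 3 from 0 to 300 nM LDN and 2 in untreated cells, below the minimum for a test. An unnamed RNA of the opposite strand, at up to 1.09 CPM, shares 136 exon bases with ADAMTS18. ADAMTS16, the nearest relative of ADAMTS18, had a trough in place of a rise. It gave 15.6 and 15.3 CPM at 0 h, then 15.2, 9.07, 5.63, 5.96 and 15.0 CPM, so that in CPM the level at 42 h was back at that of 0 h. In FPKM it was 3.05 at 42 h, against 4.55 and 6.41 at 0 h.

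With LDN, ADAMTS16 rose from 11.1 through 13.4, 13.6 and 16.6 to 16.9 CPM, with 17.2 CPM untreated (0.15 ± 0.03 per step, adjusted p = 0.00146). ADAMTS10, which binds fibrillin, gave 14.9 and 18.5 CPM at 0 h, then 33.0, 28.4, 26.5, 16.4 and 8.07 CPM from 4 to 42 h. It peaked at 4 h as ADAMTS14 and MMP17 did, and at 42 h it was below both 0 h libraries, with a log2 ratio of -1.63 in FPKM. With LDN it fell from 26.3 through 21.3, 21.4 and 21.0 to 16.3 CPM, with 14.2 CPM untreated (-0.14 ± 0.03, adjusted p = 0.00325). The slope did not pass without the 0 nM or the 300 nM library.

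ADAMTS17, like ADAMTS10 a gene of Weill-Marchesani-type short stature syndromes, gave 4.41 and 4.08 CPM at 0 h and 6.05, 6.08, 9.29, 10.7 and 15.7 CPM later. It rose by 0.44 ± 0.05 per 10 h (adjusted p = 0.000604), and every library after 0 h was above both at 0 h. With LDN it gave 3.63, 3.59, 3.06, 3.23 and 3.51 CPM, and 2.74 CPM untreated, with no trend that passed. ADAMTS6 gave 0.829 and 1.13 CPM at 0 h and at most 3.69 CPM, at 28 h, and ADAMTS19 ran from 19.0 CPM at 42 h to 32.2 CPM at 4 h. Neither passed in either trend.

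The inhibitors did not move as a group. TIMP2 (ENSG00000035862, chr17:78852977-78925387) gave 50.2 and 45.7 CPM at 0 h, then 59.1, 72.9, 116, 186 and 227 CPM from 4 to 42 h. Each later time was above the one before, and the rise was 0.58 ± 0.05 per 10 h (adjusted p = 0.000117). With LDN it gave 43.0, 41.6, 42.0, 39.8 and 36.8 CPM, and 42.5 CPM untreated. The slope of -0.05 ± 0.02 (adjusted p = 0.0403) was the smallest of those that passed, and it did not pass in DESeq2, without the 0, 10, 100 or 300 nM library, with log10 dose, without the expression minimum, or with the untreated library added.

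TIMP4 (ENSG00000157150, chr3:12153068-12158912) gave 9.85 and 12.5 CPM at 0 h, then 12.7, 12.0, 3.91, 2.45 and 0.810 CPM from 4 to 42 h. It fell by 0.93 per 10 h (SE 0.13, adjusted p = 0.00147) and was 0.112 times the 0 h mean at 42 h, the lowest ratio of any member (log2 -3.15, and -3.89 in FPKM). TIMP4 lies within SYN2, a gene of the opposite strand at up to 17.5 CPM, and shares 170 exon bases with it. With LDN it was 14.4, 15.2, 14.0, 12.4 and 12.3 CPM and 10.0 CPM untreated, with no trend that passed (-0.08 ± 0.03, adjusted p = 0.0627).

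TIMP1 held between 19.6 and 29.4 CPM over time and between 12.5 and 15.1 CPM at 5 h, and passed in neither trend. TIMP3, which stays bound to the matrix, gave 15.0 and 11.1 CPM at 0 h and 15.0, 8.80, 9.79, 14.2 and 15.6 CPM later (0.04 ± 0.08, adjusted p = 0.714). At 5 h it gave 4.38, 4.64, 4.44, 5.24 and 6.27 CPM with LDN and 10.4 CPM untreated (0.12 ± 0.04, adjusted p = 0.0588). As for MMP16 and ADAMTS8, all libraries with BMP4 were below the untreated one.

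**Figure D3:**
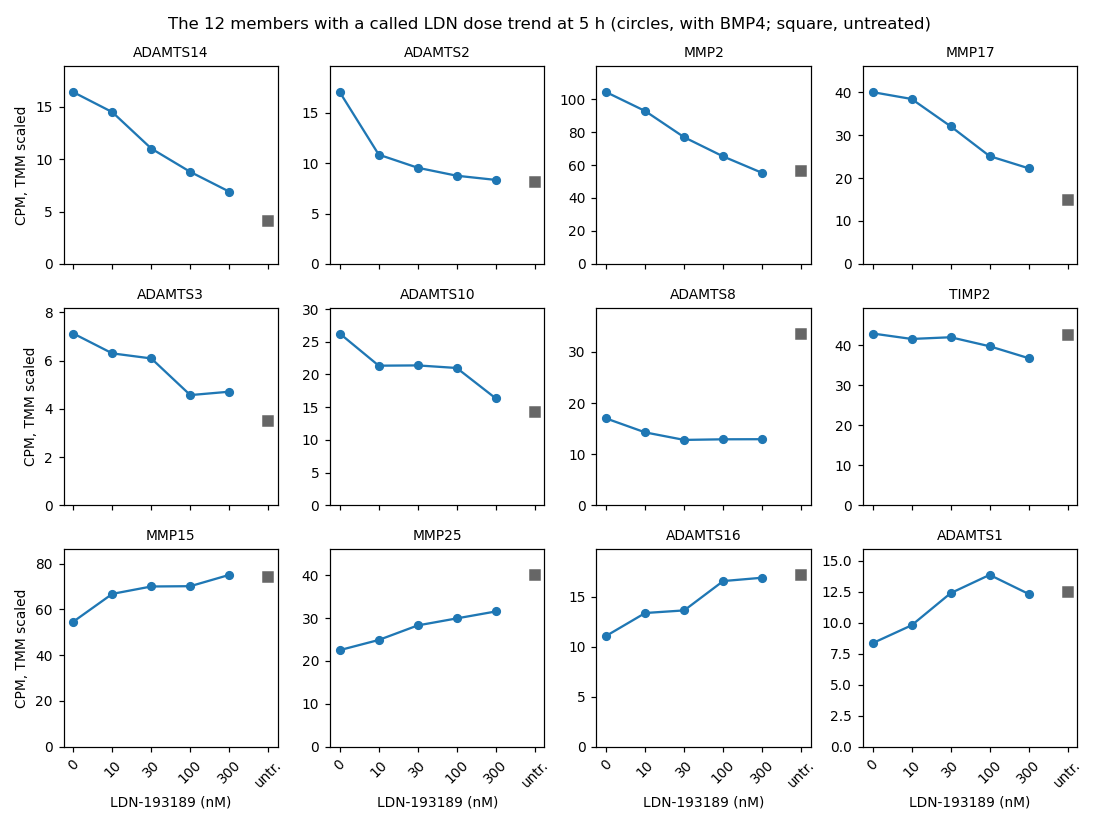
Level in CPM of the 12 members with an LDN trend that passed, against LDN dose at 5 h with BMP4 (circles) and in untreated cells (square), on axes that start at 0. The first 8 panels fall with LDN, from ADAMTS14 at -0.32 to TIMP2 at -0.05 per step, and the last 4 rise.

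At 300 nM LDN the members differed in how near they came to untreated cells. The log2 ratio to the untreated library was -0.02 for MMP2, 0.03 for ADAMTS2, 0.02 for MMP15, -0.02 for ADAMTS16 and -0.01 for ADAMTS1, whose levels therefore matched it closely. It was 0.69 for ADAMTS14 and 0.57 for MMP17, which fell at every dose and were still above it, and -0.34 for MMP25, which was still below it. For ADAMTS8 it was -1.34, for MMP16 -0.75, for TIMP3 -0.68 and for ADAMTS13 0.99. In these 4 genes the 300 nM library lay far from the untreated one, while the dose slope was small or did not pass. The untreated library also lacked IWP2, was the shallowest and had the highest mitochondrial share of its experiment. The parts of BMP4, IWP2, any difference in ROCK inhibitor, and library in these gaps cannot be told apart.

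Of the 12 members with a dose trend, 11 differed between 4 h and 0 h in the direction opposite to their LDN slope, the exception being ADAMTS8. That share was 91.7% for the members and 84.9% for all 3145 genes with a dose trend that were measured over time, so it was near the background. For MMP25 and ADAMTS16 the 4 h log2 ratios were only -0.01 and -0.02. Across both trends, MMP2, ADAMTS3 and TIMP2 rose with time and fell with LDN, MMP15 and ADAMTS1 rose with both, and MMP25 fell with time and rose with LDN. The other 5 that fell with LDN (ADAMTS2, ADAMTS8, ADAMTS10, ADAMTS14 and MMP17) had no linear trend over time that passed.

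**Figure D4:**
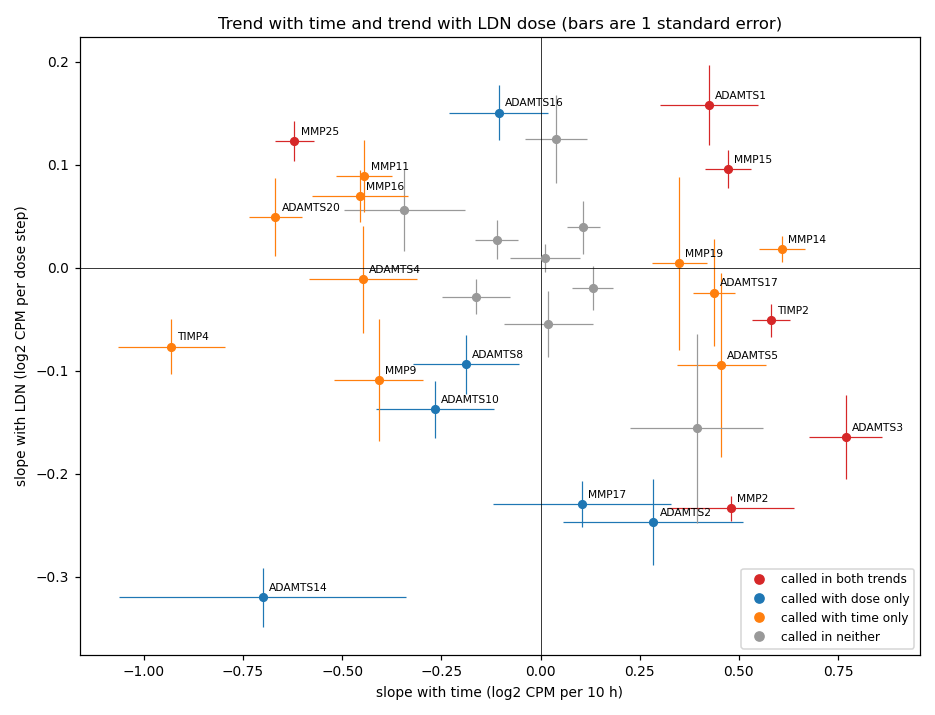
Slope with time (log2 CPM per 10 h) against slope with LDN (log2 CPM per dose step) for the 31 members tested in both, with bars of 1 standard error and colours for the trends that passed. ADAMTS14 stands lowest at -0.32 per LDN step, MMP25 at the upper left falls with time and rises with LDN, and MMP15 and ADAMTS1 at the upper right rise with both.

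Levels of different genes were compared as FPKM. At 0 h TIMP1 led with 42.9 and 55.4 FPKM in the 2 libraries, followed by MMP15 (24.0 and 31.6) and MMP14 (25.5 and 22.6), whose values overlapped, and by MMP24 (18.4 and 22.8). TIMP1 still led at 4 h, with 49.3 FPKM against 45.8 for MMP17. From 12 to 28 h MMP2 led, with 78.8 FPKM at 20 h, and at 42 h MMP15 with 94.5, MMP14 with 77.5 and TIMP2 with 59.0 FPKM. MMP2 was the highest at 5 h with BMP4 and no LDN (54.9 FPKM). In untreated cells MMP14 (27.3 FPKM) and TIMP1 (26.9 FPKM) led and were nearly equal.

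Summed over the family, MMPs made up 135 and 142 FPKM at 0 h, 263 at 20 h and 249 at 42 h. TIMPs made up 72.7 and 86.2 FPKM at 0 h and 117 at 42 h, and ADAMTS genes 65.6 and 76.0 FPKM at 0 h and 98.5 at 42 h. The ratio of summed MMP to summed TIMP FPKM was 1.85 and 1.64 at 0 h, then 2.06, 2.42, 2.77, 2.06 and 2.12 from 4 to 42 h. All later ratios were above both at 0 h. In the dose response the ratio was 2.72, 2.45, 2.22, 2.21 and 2.20 with LDN and 2.18 in untreated cells. From 0 to 300 nM LDN, MMP2 went from 54.9 to 25.4 FPKM and MMP17 from 24.8 to 13.6 FPKM. Other MMPs, such as MMP15 and MMP25, were higher at 300 nM than at 0 nM. From 0 to 10 nM, MMP2 went from 54.9 to 39.0 FPKM, but only from 104 to 92.7 CPM. The family sums are of RNA and carry no test, and the experiments differ in library preparation, so their ratios are not compared with each other.

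**Figure D5:**
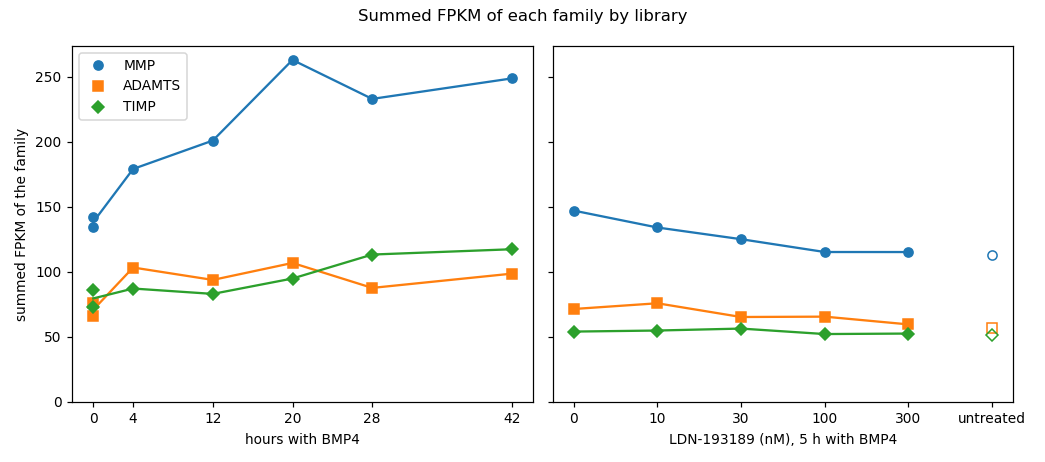
Summed FPKM of the MMP, ADAMTS and TIMP genes in each library against hours with BMP4 (left) and against LDN dose at 5 h (right, open symbols for untreated cells), with no error bars since only 0 h has 2 libraries. The MMP sum goes from 135 and 142 at 0 h to 263 at 20 h, and from 147 at 0 nM LDN to 115 at 300 nM.

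Among genes that act on these enzymes, FURIN, the convertase that activates membrane-type MMPs and many ADAMTS enzymes, rose with time (0.68 per 10 h, adjusted p = 0.0223). It fell with LDN (-0.37 per step, adjusted p = 3.36e-08). At 5 h it gave 179 CPM with BMP4 and no LDN, 65.6 CPM at 300 nM LDN and 47.4 CPM untreated. PCSK6, a related convertase, rose with time (0.50), as did BSG, an inducer of MMPs (0.19), and PCSK5 fell (-0.53). In that list of 8 genes for activation, inhibition and clearance, 3 of 7 tested rose with time and 1 fell, and only FURIN had a dose trend. The inhibitor RECK, at 7.08 and 6.03 CPM at 0 h, passed in neither.

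Of 7 ADAMTS-like proteins, which lack the protease domain, 6 were tested. ADAMTSL4 (1.11 per 10 h) and ADAMTSL2 (0.68), both linked to fibrillin microfibrils, rose with time, and PAPLN fell (-0.94). ADAMTSL4 rose with LDN and ADAMTSL3 fell. Of 10 matrix substrates 9 were tested, of which 3 rose with time (FN1, ACAN and FBN2) and 3 fell (VCAN, BCAN and FBN1). FN1, the adhesive protein fibronectin, went from 121 and 92.5 CPM to 6479 CPM at 42 h, while the proteoglycan versican (VCAN), the substrate of ADAMTS9 and ADAMTS20, went from 937 and 616 CPM to 77.8 CPM. With LDN, VCAN, BCAN and THBS1 rose and FBN2 fell (-0.44 per step, adjusted p = 1.27e-08).

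Among 7 ADAM sheddases, membrane relatives that release cell surface proteins, 6 were tested, and ADAM9, ADAM17 and ADAM19 rose with time, ADAM19 from 35.7 and 36.7 to 292 CPM. With LDN, ADAM10 and ADAM19 fell and ADAM15 rose. In the plasminogen system, whose product plasmin can activate MMPs, 5 of 7 genes were tested. SERPINE2 rose and PLAT fell with time, and none of the 5 had a dose trend that passed. Of the astacins BMP1 rose and TLL2 fell with time, and neither passed with LDN.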

How the data were processed

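Expression was measured by bulk RNA-seq in 13 libraries, 7 of the time series (RNAqueous kit, ribosomal RNA depletion) and 6 of the dose response (RNeasy kit, polyA selection). The preparation differs between the experiments, so they were scaled and tested separately. Per the labels, STAR 2.7.8a and RSEM 1.3.3 were used with GRCh38, after trimming with Cutadapt. The annotation release is not given in the sources used here, nor is a strand setting. The deposited expected counts are whole numbers, not scaled for depth. The FPKM tables deposited by the authors are scaled for depth and gene length. They were used to compare levels between genes, and beside CPM as an alternative scale for changes of single genes. Each table held 61546 features, of which 5 (not human) were left out.

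CPM were computed with TMM factors within each experiment. Trends with hours (7 libraries) and with LDN step (5 libraries with BMP4) were fitted to every gene whose mean reached 1 CPM, with edgeR 4.0.16 in R 4.3.3 (quasi-likelihood, Benjamini-Hochberg at 0.05). Ratios are differences in log2(CPM + 0.5), which understates changes of low genes. The fits were first run on simulated counts with linear slopes and the same spread for every gene. Curved courses, spread that differs between genes, and slopes as small as the members' dose slopes were not simulated. Nothing in the labels says that the 0 h libraries came from separate cultures, so p-values measure the spread between these libraries only. Floors (3 counts) cover counting error only.

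The gene family, its roles and the gene lists were chosen with earlier results of these data known, and within the family the name rule set the members. Values were given in every library for the 27 members with a mean of at least 1 CPM and either trend passing or a change of at least 2-fold in the 42 h or 5 h ratio, and other members are given by range. Positions are from GENCODE release 44, promoters from RefSeq (GRCh38.p14), with 26 of 45 members matched. Alternatives were DESeq2 1.42.0, other scalings, minimums and dose or time scales, and libraries left out. Python 3.11.15, pandas 2.3.3, numpy 2.4.6 and matplotlib 3.10.9 were used.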

Additional observations from a re-analysis of the deposited data

Results flagged for a closer look

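Of the members measured in both experiments, 3 lay on opposite sides at the nearest matched times: the 4 h library was beyond both 0 h libraries on one side, and all 5 libraries with BMP4 at 5 h were beyond the untreated one on the other. Measured here means a mean of at least 1 CPM over all libraries of each experiment. Other members of this set whose ratios differed in sign did not meet both conditions. Ratios are of 4 h to 0 h, and of 5 h with BMP4 and no LDN to untreated cells. MMP19 also met both conditions, with log2 ratios of -0.211 and 0.0904, but its mean over the 6 dose-response libraries was 0.990 CPM. The difference was not tested, since each ratio rests on single libraries apart from the 2 at 0 h, and the experiments differ in RNA kit and library preparation. MMP9, a gelatinase, had log2 ratios of -0.554 at 4 h and 0.443 at 5 h. TIMP3, the matrix-bound inhibitor, had 0.195 at 4 h and -1.16 at 5 h, and its 4 h level matched the higher 0 h library at 15.0 CPM to 3 digits. ADAMTS15, a hyalectanase, had 0.0586 at 4 h and -0.491 at 5 h.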

How the results depend on the processing

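The number of members with a time trend was 18 and stayed between 16 and 21 with DESeq2, its size factors, library totals, time ranks or other minimums. A linear and quadratic term gave 28, ADAMTS14, ADAMTS2 and ADAMTS10 among those added. Leaving out single libraries gave 14 to 18. The counts without 12, 20 or 28 h were chosen after seeing the data, as were the fits per gene without a library, other than 42 h, 0 nM and 300 nM, and those per gene with a quadratic term. Without 42 h the trends of ADAMTS1, ADAMTS4, ADAMTS5, MMP9, MMP16 and MMP19 did not pass. The 12 dose trends became 3 (MMP2, ADAMTS14 and MMP17) with dose in nM and 6 without the 0 nM library, and 10 to 13 otherwise. Some trends reported as not passing did pass in another setting. Over time these were ADAMTS6, ADAMTS14 and ADAMTS15 in DESeq2, and ADAMTS6 with time ranks. With LDN they were MMP16, TIMP3 and TIMP4 with the untreated library added. Leaving out a library made a few others pass, such as MMP11 without 300 nM LDN. The slope of ADAMTS8 was 0.14 per step, and did not pass, with the untreated library added, and no other slope that passed changed sign in the fits per gene. Over all genes the dose trends fell from 3173 to 390 with dose in nM, 1983 without 0 nM and 2080 without 300 nM, and the time trends from 5865 to 3277 without 42 h. Library totals shifted the median gene by -0.23 on the log2 scale at 42 h, against -0.01 with TMM. They lowered the share of time trends that rose from 52.4% to 34.3%, with 10 members rising and 7 falling. The share with dose in nM was 20.3%, against 48.5%. Members past 2-fold numbered 21 to 24 at 42 h (23 as reported) and 5 to 8 at 5 h (6 as reported). Of the named members' recomputed ratios, 60 at 42 h and 24 at 5 h moved by more than 1 SD of that gene's 0 h libraries, and 48 and 72 did not. No paired analysis was possible because only 0 h has a second library. With 1 library per dose and time, trends cannot be told apart from library differences that follow dose or time, and genes under 1 CPM were not tested.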
